A study of Mus musculus with 6 samples.

Results

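The wall of the mouse uterus carries a coat of smooth muscle, the myometrium, and 36 genes of the contractile machinery of smooth muscle were examined here in 6 uteri. They were chosen by name, as genes of the thin filament, the myosin motor, the proteins that bind or anchor the filaments, the transcription factors that switch them on, the calcium stores, potassium channels and contraction-associated proteins, and the rule uses no measured value, although earlier results of these data were known when it was made. All 36 were among the 56748 genes listed for each uterus, and 35 passed the filter on low counts that left 16605 genes for testing. The uteri came from 3 control and 3 *Gp130* ecKO females, labelled as C57BL/6 and given as C57BL/6J in the study's methods, over 8 weeks of age, at 1600 h on day 4 of pregnancy. *Gp130* ecKO females carried *Ltf*-iCre together with *Gp130* flox/flox, and *Ltf*-iCre is active in the uterine epithelium and in some immune cells, and the level of *Gp130* in muscle and in stroma was not measured separately here. The labels call the controls WT, whereas the study's methods describe controls as floxed females without iCre or as wildtype. The sample labels name the tissue as uterus, and the series description names it as endometrium. Replicates were separate uteri.

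Smooth muscle shortens when calcium entering the cell or leaving its internal store binds calmodulin and activates myosin light chain kinase, which phosphorylates the regulatory light chain of myosin so that myosin pulls on actin filaments. Calponin, caldesmon and transgelin sit on the actin filament, and dense bodies anchor it to the cytoskeleton. Serum response factor, with its cofactor myocardin, binds CArG boxes in the promoters of many of these genes. In the uterus the muscle is kept quiet during early pregnancy and becomes electrically coupled through connexin 43 and responsive to oxytocin near birth.

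The CArG box, a run of A and T bases between a pair of C and a pair of G, was searched for in the 250 bases before the start of the canonical transcript of each of the 36 genes (GENCODE M39, GRCm39). The box reads the same way on both strands, so that each match counts for both. It was present in 4 of 36 members (11.1%) and in 168 of 14182 promoters of tested protein-coding genes (1.18%). With at most 1 mismatch it was present in 13 members (36.1%) and in 16.4% of those promoters. The windows around the exact matches are printed because the members with a box include both kinds of expression pattern described below. Capitals mark the box, and each sequence is read 5′ to 3′ on the strand of the gene.
*Tagln*, chr9:45847444-45847483, minus strand, box beginning 64 bases before the start: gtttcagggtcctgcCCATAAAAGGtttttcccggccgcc
*Cnn2*, chr10:79824363-79824402, plus strand, box beginning 33 bases before the start: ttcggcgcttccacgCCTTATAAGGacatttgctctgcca
*Dmd*, chrX:81992363-81992402, plus strand, box beginning 96 bases before the start: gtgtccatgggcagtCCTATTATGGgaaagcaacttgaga
*Srf*, chr17:46867126-46867185, minus strand, boxes beginning 51 and 31 bases before the start: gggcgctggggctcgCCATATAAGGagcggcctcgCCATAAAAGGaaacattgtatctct

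*Srf*, the gene of serum response factor itself, was the only member with 2 boxes, an arrangement found in 3 of the 14182 promoters (0.0212%). None of the 8 members used below as smooth muscle markers had an exact match in this window, which says only that these letters are not in these 250 bases.

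Reads were counted per gene and are given as CPM, the usual depth-scaled count, here relative to the TMM-scaled library size. Total counts were between 22930513 and 25906443 in 5 uteri and 13960748 in control 3. The targeted gene, listed as *Il6st*, was below every control in every *Gp130* ecKO uterus (log2 fold change −0.68, SE 0.21, adjusted p = 0.120 in the edgeR quasi-likelihood test), in RNA that also came from stroma and muscle. The 8 smooth muscle markers (*Myh11*, *Actg2*, *Acta2*, *Cnn1*, *Des*, *Myocd*, *Lmod1* and *Smtn*) were detected in all 6 uteri, so the RNA of both groups held transcripts of smooth muscle, of the myometrium or of vessels.

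The uteri of each group held very different amounts of muscle transcripts. The geometric mean CPM of the 8 markers was 88.3 in control 1, 73.4 in control 2 and 24.2 in control 3. Among the *Gp130* ecKO uteri it was 20.2 in the first, 37.6 in the second and 111 in the third. Controls 1 and 2 and *Gp130* ecKO 3 formed the high uteri, and control 3 and *Gp130* ecKO 1 and 2 the low ones, so that each group held both. In bulk RNA, fewer muscle cells and less RNA per muscle cell cannot be told apart, and how much myometrium each sample held is not given, since the labels and the series description name the tissue differently. The 36 genes together took 0.610%, 0.520% and 0.316% of the counts of the controls, in the same order, and 0.224%, 0.268% and 0.633% of those of the *Gp130* ecKO uteri. *Gp130* ecKO 3 had the highest CPM of the 6 uteri for 17 of the 35 tested members, and *Gp130* ecKO 1 had the lowest for 22. Control 3 was the lowest control for 26 members and had the fewest counts of all libraries, and *Gp130* ecKO 1 was the lowest of its group for 28 and had the fewest counts of its group. *Gp130* ecKO 2, also low for the markers, had the most counts of its group, 25550809, against 25029085 in *Gp130* ecKO 3. The part of depth in this pattern was not tested.

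**Figure D1:**
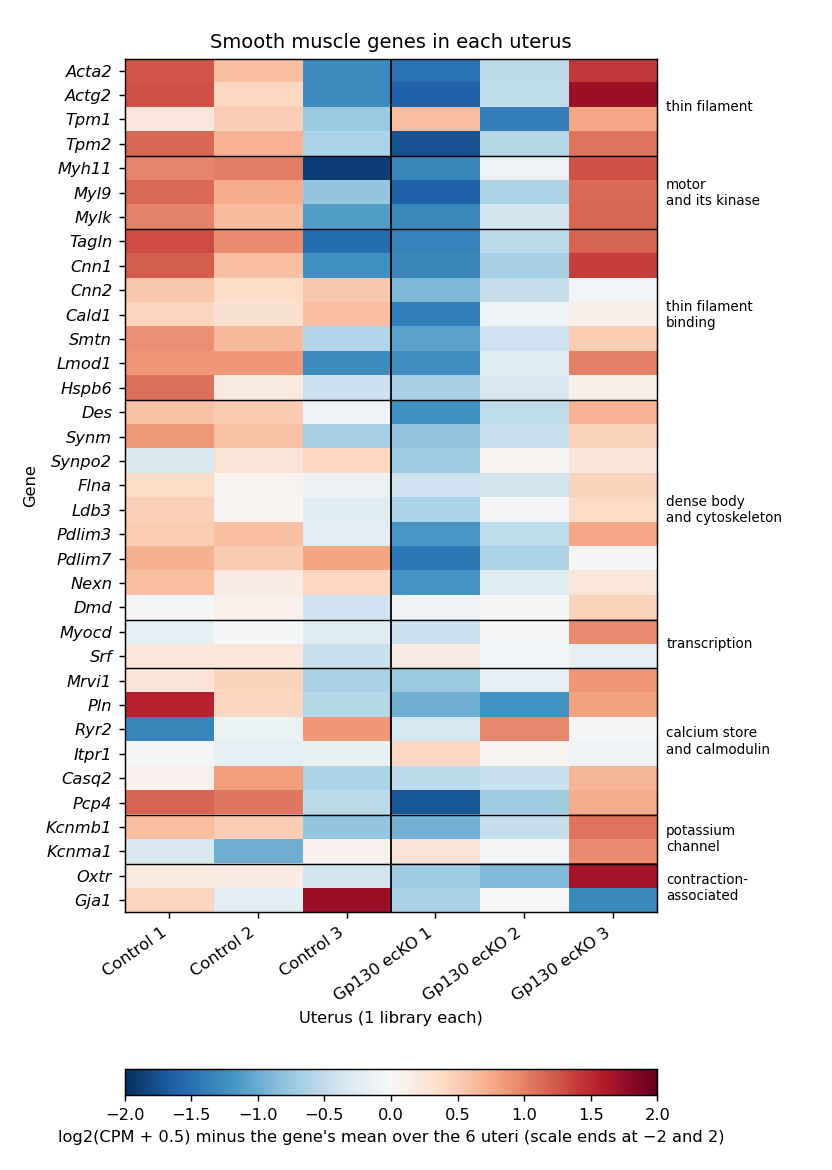
Level of each of the 35 tested smooth muscle genes in each of the 6 uteri, as the log2 difference from the mean of that gene over the uteri, with genes in rows grouped by role and uteri in columns. Most rows are high in controls 1 and 2 and *Gp130* ecKO 3 and low in control 3 and *Gp130* ecKO 1 and 2.

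An order in which controls 1 and 2 both exceeded control 3, while *Gp130* ecKO 3 exceeded *Gp130* ecKO 1 and 2, was chosen after the values were seen and is given as a description. It held for 25 of the 35 tested members and for all 8 markers, against 15.7% of all 16605 tested genes. The 10 members outside this order were *Cnn2*, *Cald1*, *Synpo2*, *Pdlim7*, *Nexn*, *Srf*, *Ryr2*, *Itpr1*, *Kcnma1* and *Gja1*. The median SD within groups on the log2 CPM scale was 0.77 over the members, 1.26 over the 8 markers and 0.33 over all tested genes. The highest control exceeded the lowest by a median of 5.09-fold over the 8 markers, and the highest *Gp130* ecKO uterus exceeded the lowest by 5.58-fold. Over the 10260 tested genes with a mean CPM of at least 10, the same medians were 1.44-fold and 1.37-fold.

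Between the groups, no member passed the call of an FDR below 0.05 with more than 2-fold change in edgeR's quasi-likelihood test, which 26 of all 16605 tested genes passed (0.157%). With each of DESeq2, edgeR's exact test and its likelihood ratio test 1 member, *Pdlim7*, passed that call, as did 9.31%, 7.54% and 7.93% of all tested genes, in the same order. At an unadjusted p below 0.05 in edgeR's quasi-likelihood test there were 3 members, *Cnn2*, *Pdlim7* and *Gja1*, all lower in *Gp130* ecKO, where 12.9% of all tested genes were lower and 12.1% higher at that threshold, 25.0% in all. CPM did not overlap between the groups for 3 members, *Cnn2*, *Cald1* and *Pdlim7*, again all lower, against 15.6% of tested genes that were lower without overlap and 31.3% without overlap in either direction. The members' counts were below those shares of all genes. Of the 35 members 26 had a negative and 9 a positive log2 fold change, against 52.9% negative over all tested genes. The median log2 fold change was −0.25 over the members and −0.05 over all tested genes. These values rested in part on single uteri. Without *Gp130* ecKO 3 the median was −1.11, 10 members were lower at an unadjusted p below 0.05, as were 10.3% of all genes, and 11 members did not overlap, where 45.5% of all genes did not. Those 10 were *Tpm2*, *Myl9*, *Cnn2*, *Cald1*, *Des*, *Pdlim3*, *Pdlim7*, *Nexn*, *Pln* and *Pcp4*. Without *Gp130* ecKO 1 the median was −0.0174, 2 members were below an unadjusted p of 0.05 (15.4% of all genes) and 3 did not overlap (36.2%). Without control 3 the median was −0.66, 4 members were below an unadjusted p of 0.05 (19.1% of all genes) and 9 members did not overlap, against 39.9% of all genes. There were 5 such members without control 1 (39.0% of all genes), 5 without control 2 (45.6%) and 6 without *Gp130* ecKO 2 (42.1%). In each of these 3 fits 3 members were below an unadjusted p of 0.05, against 19.2%, 27.3% and 20.4% of all genes, and the median was −0.0290, −0.15 and −0.23. With a block for the replicate number 4 members, *Cnn2*, *Cald1*, *Pdlim7* and *Kcnma1*, were below an unadjusted p of 0.05, where 22.1% of all tested genes were, and *Gja1* was not.

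**Figure D2:**
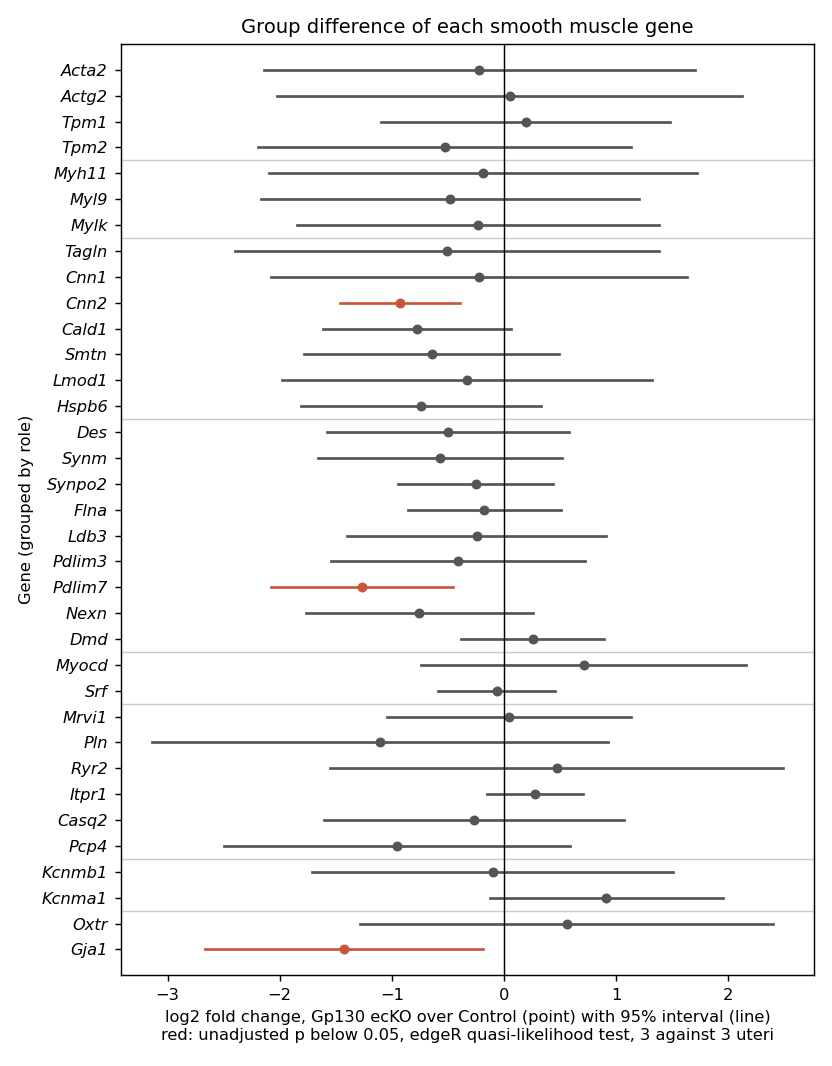
Log2 fold change of each tested member, *Gp130* ecKO minus control, with its 95% confidence interval from edgeR's quasi-likelihood fit. The intervals of *Cnn2*, *Pdlim7* and *Gja1* lie below 0 and those of the markers *Myh11*, *Acta2* and *Actg2* reach to both sides of it.

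The thin filament genes varied widely within groups. *Acta2*, smooth muscle α-actin, which also marks vascular smooth muscle, had a CPM of 986, 626 and 169.8 in the controls and 146, 286 and 1098 in *Gp130* ecKO, always given in the order of uterus 1, 2 and 3. *Actg2*, the γ-actin of visceral and uterine muscle, had 189, 103 and 31.7 in the controls and 25.0, 54.6 and 256 in *Gp130* ecKO. Both actins were low in control 3 and highest in *Gp130* ecKO 3, and the groups overlapped. The log2 fold change was −0.22 (SE 0.82, adjusted p = 0.881) for *Acta2* and 0.05 (SE 0.89, adjusted p = 0.975) for *Actg2* in edgeR's quasi-likelihood test. *Tpm2*, a tropomyosin that winds along the actin filament, had 391, 285 and 113 in the controls and 52.4, 119 and 376 in *Gp130* ecKO.

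*Tpm1*, the other tropomyosin and the member with the highest mean TPM in *Gp130* ecKO, kept the order but not the proportions. Its CPM was 536, 644 and 274 in the controls and 702, 175 and 784 in *Gp130* ecKO. *Gp130* ecKO 1, the uterus with the lowest marker mean, was therefore the second highest of 6 for *Tpm1*. *Tpm1* is made in many cell types, and 2.63% of its 75-base stretches also occur on the opposite strand of other genes' transcripts. *Actc1*, cardiac α-actin, had at most 3 counts in each uterus and was not tested.

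The motor genes kept the order described above. *Myh11*, the smooth muscle myosin heavy chain and itself one of the 8 markers (ENSMUSG00000018830, chromosome 16 from 14012399 to 14109236, minus strand, GRCm39), had a CPM of 286, 293 and 38.9 in the controls and 58.1, 134 and 350.4 in *Gp130* ecKO. The mean was 206 ± 145 (SD, n = 3) in the control and 181 ± 152 (SD, n = 3) in *Gp130* ecKO. The 95% interval of the log2 fold change of −0.19 ran from −2.09 to 1.72. The interval reached beyond a 2-fold difference in either direction, so these uteri could not show whether *Myh11* differed by that much. *Mylk*, the kinase that phosphorylates the myosin light chain, had 319.6, 251 and 74.3 in the controls and 66.0, 124 and 358 in *Gp130* ecKO. *Myl9*, the regulatory light chain that it phosphorylates, had 262, 199.8 and 69.7 in the controls and 38.9, 78.0 and 264 in *Gp130* ecKO. Control 3 was the lowest control and *Gp130* ecKO 3 the highest ecKO uterus for each of these genes. None of these genes was past an unadjusted p of 0.05, where 25.0% of all tested genes were.

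**Figure D3:**
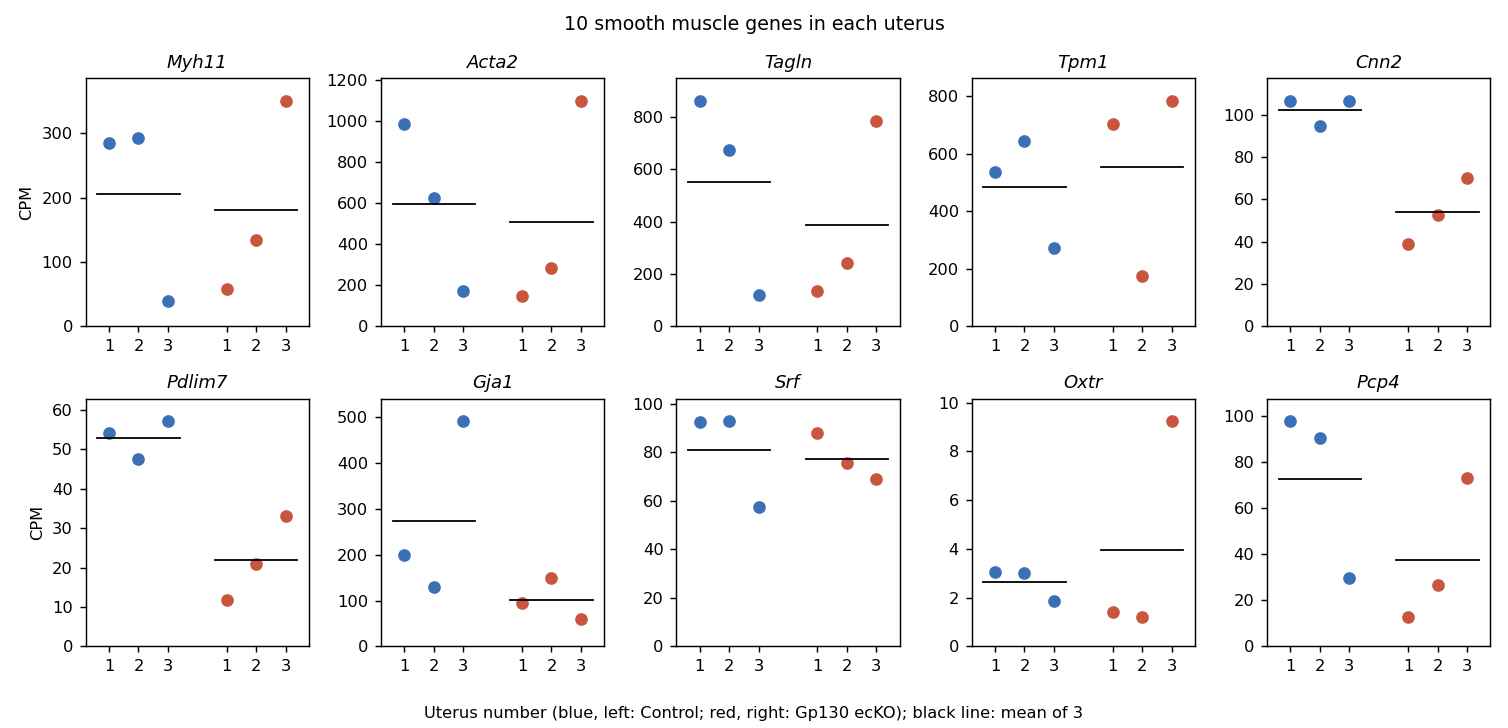
CPM of 10 smooth muscle genes in each uterus, controls in blue on the left and *Gp130* ecKO in red on the right, with the mean of 3 as a black line. *Cnn2* and *Pdlim7* are lower in each *Gp130* ecKO uterus than in each control, *Gja1* is high in control 3, and *Myh11*, *Acta2* and *Tagln* are low in control 3 and high in *Gp130* ecKO 3.

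Among the 7 genes whose proteins bind the thin filament, *Cnn2* stood apart from *Cnn1*. *Cnn1*, the calponin of differentiated smooth muscle, had a CPM of 181, 119 and 33.1 in the controls and 31.1, 49.3 and 205 in *Gp130* ecKO. *Cnn2*, the calponin found in many non-muscle cells as well (ENSMUSG00000004665, chromosome 10 from 79824410 to 79831896, plus strand), had 106, 94.4 and 106 in the controls and 38.9, 52.5 and 70.2 in *Gp130* ecKO. The mean of *Cnn2* was 102 ± 6.88 (SD, n = 3) in the control and 53.9 ± 15.7 (SD, n = 3) in *Gp130* ecKO, with no overlap. The log2 fold change of *Cnn2* was −0.93 (SE 0.23, adjusted p = 0.0922 in the edgeR quasi-likelihood test), which missed the threshold. An exact two-sided permutation test gave 0.1 for *Cnn2*, the smallest p that 3 uteri against 3 allow. The adjusted p of *Cnn2* was 0.0146 with DESeq2 and 0.0220 with edgeR's exact test, and over all alternatives it ran from 0.0146 to 1.00, the latter with scaling to the smooth muscle markers. In that scaling the log2 fold change of *Cnn2* was −0.77 with a wider SE of 1.09. The SE there was 0.95 to 1.17 over the tested members, so that fit could not decide on *Cnn2*. *Cnn2* stayed lower in each alternative, and with 1 uterus left out its log2 fold change was between −1.13 and −0.73.

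*Cald1*, caldesmon, also had separated groups, with 163, 150.4 and 187 in the controls and 46.1, 115 and 131 in *Gp130* ecKO. The fitted log2 fold change was −0.77 (SE 0.36, adjusted p = 0.226 in the edgeR quasi-likelihood test). With 1 uterus left out the log2 fold change of *Cald1* was between −1.02 and −0.43. *Tagln*, transgelin, had 862, 673 and 119 in the controls and 136, 244 and 786 in *Gp130* ecKO. *Tagln* and *Cnn2* both carry an exact CArG box in the windows printed above, and only *Tagln* kept the order of the markers. *Smtn*, smoothelin, had 109.8, 91.9 and 38.5 in the controls and 27.5, 43.3 and 83.1 in *Gp130* ecKO. *Lmod1*, leiomodin 1, which starts new actin filaments, had 22.3, 22.1 and 4.73 and then 4.79, 9.88 and 24.6, and *Hspb6*, a small heat shock protein, 14.6, 7.56 and 4.73 and then 3.93, 5.11 and 7.17. Each of the 7 genes had a lower fitted level in *Gp130* ecKO, as did 52.9% of all tested genes. The direction of *Cnn1* and of *Lmod1* turned in some fits with 1 uterus left out. Of the 7 genes 1, *Cnn2*, was below an unadjusted p of 0.05, where 12.9% of all tested genes were lower at that threshold. For *Tagln* 49.2% and for *Cnn1* 31.7% of 75-base stretches also occur on the opposite strand of other genes, *Pcsk7* and *Gm48529* together for *Tagln* and *Elof1* for *Cnn1*. The share was 38.3% for *Pln*, with *Cep85l* among the other genes, 30.9% for *Nexn*, with *Fubp1* among them, and below 10% for every other member. The libraries were strand-specific, but whether the counting used the strand is not given in the sources used here.

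The 9 genes of dense bodies and the cytoskeleton included the lowest fold change with separated groups. *Pdlim7*, a PDZ and LIM domain protein of the actin cytoskeleton (ENSMUSG00000021493, chromosome 13 from 55643608 to 55662151, minus strand), had a CPM of 54.1, 47.5 and 57.2 in the controls and 11.9, 21.0 and 33.1 in *Gp130* ecKO. The fitted log2 fold change was −1.27 (SE 0.35, adjusted p = 0.104 in the edgeR quasi-likelihood test), and an exact permutation test gave 0.1. The adjusted p was 0.0172 with DESeq2 and 0.0202 with edgeR's exact test. Over all alternatives the adjusted p of *Pdlim7* ran from 0.0172 to 1.00, again with the marker scaling. *Pdlim3*, a related protein, had 79.2, 83.8 and 47.5 in the controls and 24.4, 38.6 and 95.3 in *Gp130* ecKO, and so kept the order of the markers.

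*Flna*, filamin A, which crosslinks actin in most cell types, had 782, 637 and 559.7 in the controls and 452, 471 and 828 in *Gp130* ecKO. *Des*, desmin, the intermediate filament of muscle, had 277, 266 and 175 in the controls and 79.1, 130.1 and 299 in *Gp130* ecKO. *Synm*, synemin, had 39.4, 32.7 and 13.4 and then 12.4, 15.5 and 29.8. *Ldb3*, a Z-disc protein, had 1.86, 1.23 and 0.933 and then 0.588, 1.15 and 1.70. These 4 genes kept the order, whereas *Synpo2* (102, 152 and 167, then 74.9, 129 and 149) and *Nexn* (7.24, 5.24 and 6.27, then 1.76, 3.81 and 5.51) did not. *Dmd*, dystrophin, was the member of this group with a positive log2 fold change, 0.26 (SE 0.27), at 11.1, 12.2 and 8.40 in the controls and 10.9, 11.2 and 16.0 in *Gp130* ecKO. Of the 9, 1 gene, *Pdlim7*, was below an unadjusted p of 0.05, as were 25.0% of all tested genes.

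The transcription factors differed from each other in level and in pattern. *Srf* had a CPM of 92.5, 92.9 and 57.5 in the controls and 87.9, 75.5 and 68.8 in *Gp130* ecKO, with a log2 fold change of −0.07 (SE 0.22). *Srf*, which is expressed in most cells, did not follow the marker genes that its protein is known to regulate. *Myocd*, myocardin, had a low CPM of 0.566, 0.694 and 0.533 in the controls and 0.407, 0.692 and 1.87 in *Gp130* ecKO, and is itself one of the 8 markers. Of 10 other cofactors and repressors of this pathway, 3 were below an unadjusted p of 0.05, all lower, where 12.9% of all tested genes were lower. None was below an FDR of 0.05, against 3 in DESeq2, where 13.4% of all tested genes were. *Tbx2*, a T-box repressor, had 6.84, 7.71 and 8.40 in the controls and 1.09, 2.69 and 1.99 in *Gp130* ecKO (log2 fold change −1.98, SE 0.38, adjusted p = 0.0677 in the edgeR quasi-likelihood test). *Tbx3* had 37.9, 27.7 and 50.9 and then 10.4, 20.3 and 10.1 (adjusted p = 0.0859 in the edgeR quasi-likelihood test).

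Genes of the calcium store and of calmodulin binding gave 3 higher and 3 lower fitted values. *Pcp4*, a calmodulin-binding peptide and the highest of these by TPM, had 97.8, 90.4 and 29.9 in the controls and 12.9, 26.5 and 72.9 in *Gp130* ecKO. Its TPM averaged 164 in the control and 87.2 in *Gp130* ecKO, and 9.80% of its stretches are shared with the transcript *Gm49948*. *Pln*, phospholamban, the inhibitor of the calcium pump, had 5.99, 2.51 and 1.00 and then 0.633, 0.461 and 3.40. *Itpr1*, the inositol trisphosphate receptor that opens the store, was even within groups at 41.3, 36.9 and 38.3 in the controls and 57.0, 44.0 and 40.3 in *Gp130* ecKO, and did not follow the markers. *Ryr2*, a ryanodine receptor, had 0.121, 0.925 and 2.33 and then 0.723, 2.54 and 1.04, with control 3 the highest control. *Casq2*, calsequestrin 2, which holds calcium in the store, had 2.75, 4.94 and 1.47 and then 1.63, 1.73 and 4.39. *Mrvi1* (*Irag1*), a target of cyclic GMP kinase, had 22.5, 25.8 and 11.8 and then 11.0, 16.3 and 34.8. None of these 6 was below an unadjusted p of 0.05, where 25.0% of all tested genes were.

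The potassium channel of large conductance gave different patterns for its subunits. *Kcnmb1*, the β1 subunit found mainly in smooth muscle, had 4.89, 4.51 and 1.53 CPM in the controls and 1.31, 2.04 and 7.01 in *Gp130* ecKO. *Kcnma1*, the pore subunit, had 3.11, 1.77 and 4.27 and then 4.97, 3.88 and 8.17, with a log2 fold change of 0.91 (SE 0.44, adjusted p = 0.244 in the edgeR quasi-likelihood test). *Kcnmb1* kept the order of the markers and *Kcnma1* did not.

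The contraction-associated genes also parted. *Gja1*, connexin 43, which couples muscle cells and is also abundant in endometrial stroma (ENSMUSG00000050953, chromosome 10 from 56253241 to 56278609, plus strand), had 199.8, 129 and 491 in the controls and 95.1, 149 and 60.3 in *Gp130* ecKO. Control 3, low for the muscle markers, was the highest of all for *Gja1*, and *Gp130* ecKO 3, high for the markers, was the lowest. The log2 fold change of *Gja1* was −1.43 (SE 0.53, adjusted p = 0.159 in the edgeR quasi-likelihood test), the groups overlapped, and with 1 uterus left out it was between −1.81 and −0.70. *Oxtr*, the oxytocin receptor, had 3.07, 3.01 and 1.87 in the controls and 1.40, 1.19 and 9.24 in *Gp130* ecKO. The log2 fold change of *Oxtr* was 0.56 (SE 0.79), and without *Gp130* ecKO 3 it was −1.02.

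Levels were compared between genes as TPM, which takes gene length into account. In the control the highest mean TPM values were those of *Tagln* (479), *Acta2* (454), *Tpm1* (427), *Tpm2* (325) and *Myl9* (245), and in *Gp130* ecKO those of *Tpm1* (511), *Acta2* (414), *Tagln* (366), *Tpm2* (232) and *Flna* (198). The TPM of *Tagln* was between 113 and 743 within the controls, so neighbours in this order did not differ beyond their spread. *Myh11* averaged 40.7 TPM in the control and 37.5 in *Gp130* ecKO, and *Actg2* averaged 127 and 143. *Oxtr* averaged 0.890 and 1.22 TPM, and *Myocd* 0.160 and 0.270.

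Dividing each CPM by the marker mean of the same uterus gave levels relative to muscle. This setting is circular for the 8 markers and moved the median log2 fold change of all tested genes to 0.37. *Mylk* and *Kcnmb1*, which are not markers, then varied least, by 1.18-fold and 1.20-fold over all 6 uteri, at 3.07 to 3.62 and 0.0542 to 0.0648 times the marker mean. *Tpm1* was at 34.7 times the marker mean in *Gp130* ecKO 1 and between 4.65 and 11.3 times elsewhere. *Gja1* ran from 0.543 in *Gp130* ecKO 3 to 20.3 in control 3, a 37.3-fold range. Relative to the markers 5 members did not overlap between the groups, *Tpm2*, *Myl9*, *Pdlim7*, *Pln* and *Pcp4*, all lower in *Gp130* ecKO. In that scaling 3.22% of all tested genes did not overlap, against 31.3% without it, and 0.885% were lower without overlap. Dividing by the markers narrows genes that follow them and widens genes that do not. These shares are therefore not a like background for the members. *Pcp4* was at 1.11, 1.23 and 1.23 in the controls and 0.639, 0.705 and 0.657 in *Gp130* ecKO. *Myl9* was at 2.96, 2.72 and 2.88 and then 1.92, 2.08 and 2.37, and *Tpm2* at 4.43, 3.88 and 4.68 and then 2.59, 3.16 and 3.39. The other 2 separated narrowly. For *Pdlim7* the lowest control was at 0.612 and the highest *Gp130* ecKO uterus at 0.588, and for *Pln* 0.0341 and 0.0313. *Pln* had 15 counts in control 3 and 14 and 12 in *Gp130* ecKO 1 and 2. In the fit with that scaling no member was below an unadjusted p of 0.05, where 3.41% of all tested genes were. *Mylk*, nearly level relative to the markers, still had an SE of 1.05 in that fit, and *Pcp4* had 1.04. The fit therefore could not decide on the separation of these 5, which is a description of 6 uteri. *Cnn2* overlapped between the groups relative to the markers, at 1.20, 1.29 and 4.39 in the controls and 1.92, 1.40 and 0.632 in *Gp130* ecKO. Its CPM was even over the controls, so the 4.39 reflects the low marker mean of control 3.

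**Figure D4:**
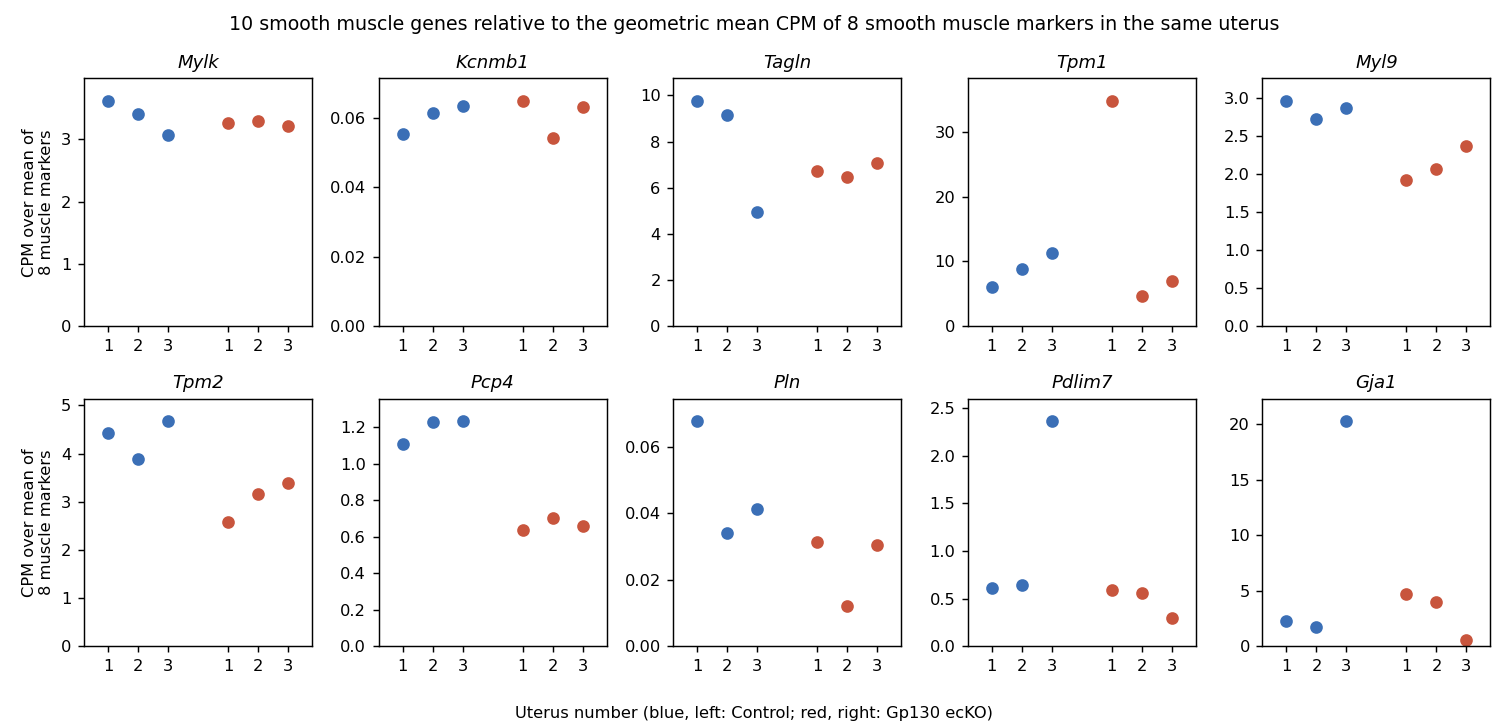
CPM of 10 members divided by the geometric mean CPM of 8 smooth muscle markers in the same uterus (controls blue, left; *Gp130* ecKO red, right). *Mylk* and *Kcnmb1* lie nearly level, *Pcp4*, *Myl9* and *Tpm2* are lower in every *Gp130* ecKO uterus, and single uteri stand out for *Tpm1* (34.7) and *Gja1* (20.3).

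Markers of some other cell types differed between the groups at an unadjusted p below 0.05, the level at which 12.9% of all tested genes were lower and 12.1% higher. The summed CPM of 8 vascular mural cell markers was 359, 587 and 558 in the controls and 132, 253 and 178 in *Gp130* ecKO, all 8 were lower and 7 were below an unadjusted p of 0.05. *Rgs5*, a pericyte gene, had 186, 398 and 389 and then 84.1, 163 and 102, and *Pdgfrb* 26.8, 40.3 and 53.2 and then 14.6, 22.3 and 14.4. Mural cells also express *Acta2*, *Myh11* and *Tagln*, and their part in the muscle pattern was not tested. Of the 8 mural markers 1, *Mcam*, kept the order of the muscle markers, with the lowest control at 62.5 in control 3 and the highest *Gp130* ecKO uterus at 40.4 in *Gp130* ecKO 3. The order also held for 3 of 7 endothelial and 4 of 9 stromal markers and for 0 of 8 epithelial markers. It held for 15.7% of all tested genes, so it was not particular to the muscle genes. The 7 endothelial markers summed to 1087, 685 and 397 in the controls and 244, 402 and 370 in *Gp130* ecKO, so that the sums overlapped, and 5 were below an unadjusted p of 0.05, all lower, among them *Tek* (log2 fold change −1.28, SE 0.33) and *Emcn* (−1.42, SE 0.33). The 9 stromal markers summed to 3763, 4908 and 3698 in the controls and 2169, 2597 and 3153 in *Gp130* ecKO, with 4 below an unadjusted p of 0.05, all lower, including *Hand2* (−1.09, SE 0.32) and *Hoxa11* (−0.85, SE 0.29). The 8 epithelial markers summed to 3631, 3942 and 2241 and then 7190.0, 5446 and 5629, with 4 below an unadjusted p of 0.05, all higher, including *Krt8* (1.32, SE 0.30) and *Krt7* (1.23, SE 0.30). Of the 8 epithelial markers 7 were higher and 1, *Epcam*, was lower (−0.19, SE 0.27), with groups that overlapped. In the quasi-likelihood test 0 of these markers were below an FDR of 0.05, and in DESeq2 6 mural, 4 endothelial, 1 stromal and 4 epithelial markers were, as were 13.4% of all tested genes. The sums of mural, stromal and epithelial markers did not overlap between the groups. Their part in the lower *Cnn2*, *Cald1* and *Pdlim7*, genes that other cell types also express, was not tested.

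**Figure D5:**
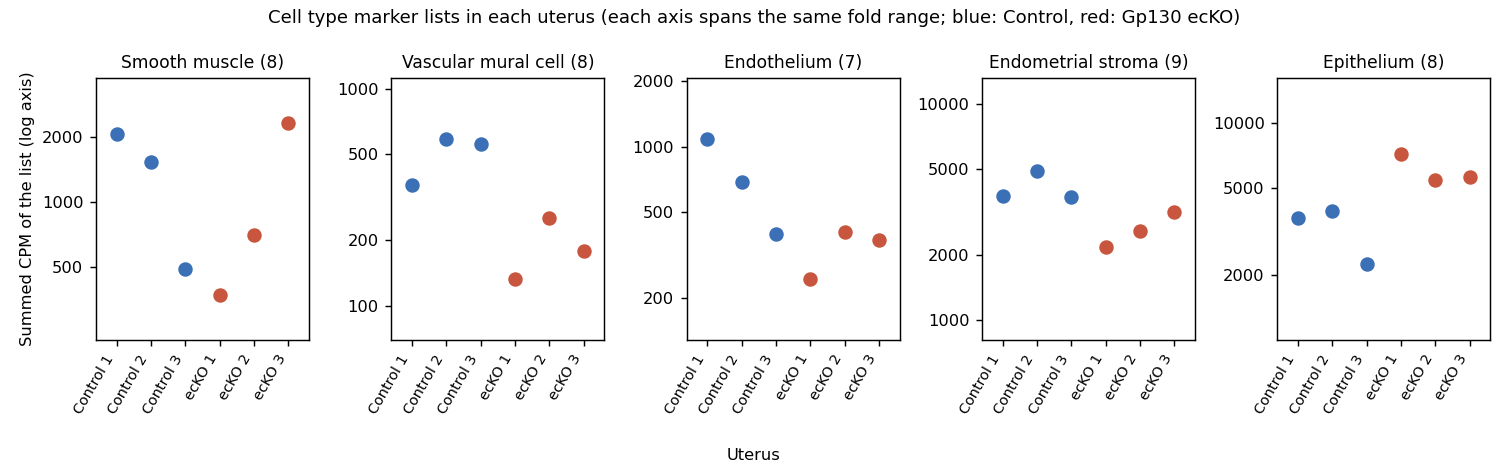
Summed CPM of marker lists for 5 cell types in each uterus, on log axes that each span the same fold range, with controls in blue and *Gp130* ecKO in red. The smooth muscle sum is low in control 3 and *Gp130* ecKO 1 and 2, whereas the mural, stromal and epithelial sums separate the groups.

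The summed leukocyte and mesothelial markers did not follow the muscle order. The leukocyte markers summed to between 38.3 and 107 CPM, with *Ptprc* at 13.1, 15.6 and 38.7 in the controls and 10.6, 23.4 and 5.55 in *Gp130* ecKO, and none of the 6 tested was below an unadjusted p of 0.05, *Csf1r* included (log2 fold change −0.60, SE 0.33). Markers of the mesothelium, which lines the outer surface of the uterus, summed to 173, 111 and 33.9 and then 95.6, 37.2 and 44.6. The 2 lowest p-values there were those of *Msln* (−0.95, SE 0.53) and *Upk1b* (−0.77, SE 0.45), and none of 4 was below an unadjusted p of 0.05. *Fabp4* was the 1 of 5 adipocyte markers that could be tested (−1.79, SE 0.50, adjusted p = 0.106 in the edgeR quasi-likelihood test), and *Lep* had no count. The adjusted p of *Fabp4* was 0.0271 in DESeq2, and its groups did not overlap. Of 11 striated muscle markers 4 had at most 3 counts in each uterus, *Myh1* and *Myh4* among them with none, and 4 could be tested, including *Tnnt3* (−1.32, SE 0.70) and *Tnnt2* (1.02, SE 0.71). Of 8 housekeeping genes none was below an unadjusted p of 0.05, and the lowest p-values were those of *Actb* (−0.62, SE 0.32) and *Gapdh* (−0.43, SE 0.24). In DESeq2 1 of them, *Actb*, was below an FDR of 0.05, as were 13.4% of all tested genes. Of the 8 housekeeping genes 2, *Actb* and *Rpl13a*, were lower in *Gp130* ecKO without overlap, as were 15.6% of all tested genes.

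Further genes of contraction were counted by list, in edgeR's quasi-likelihood test, and none in any list was below an FDR of 0.05. In DESeq2 the lists below held 10, 2, 5, 0, 1, 2 and 1 genes below that FDR, in the order in which they are described, where 13.4% of all tested genes were. Without control 2 the quasi-likelihood test had 5 genes of the contraction lists below that FDR, *Csrp2*, *Lpp*, *Tbx3*, *Pde5a* and *Gjb2*, and 2 epithelial markers, *Krt8* and *Krt19*, as were 5.41% of all genes. With any other uterus left out there were 0 in the lists. Of 32 other contractile and cytoskeletal genes tested, 12 were lower and 2 higher at an unadjusted p below 0.05 (12.9% and 12.1% of all tested genes), and the median log2 fold change was −0.41. *Csrp2*, a LIM protein of smooth muscle, had 50.1, 38.8 and 33.1 in the controls and 17.5, 19.2 and 17.9 in *Gp130* ecKO (log2 fold change −1.16, SE 0.21, adjusted p = 0.0635). *Lpp*, a LIM protein of focal adhesions and dense bodies, had 116, 151 and 145 and then 230.5, 261 and 233 (0.82, SE 0.17, adjusted p = 0.0737). Both had groups that did not overlap, in opposite directions, and neither followed the order of the markers. Of the 32 genes 10 did, as did 15.7% of all tested genes.

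Genes that set how strongly myosin stays phosphorylated gave 1 higher and 3 lower of 12 at an unadjusted p below 0.05, where 12.1% of all tested genes were higher and 12.9% lower. *Arhgef12* had 104, 115 and 104 in the controls and 253, 203 and 143 in *Gp130* ecKO (0.89, SE 0.22), and *Arhgef1*, a related gene, 86.2, 73.3 and 82.6 and then 47.2, 57.7 and 50.5 (−0.64, SE 0.16). The adjusted p was 0.0939 and 0.0922 in edgeR's quasi-likelihood test. These related genes thus had separated groups in opposite directions.

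Genes that act for or against relaxation by cyclic nucleotides numbered 12 tested. Of these 1, *Adra2a*, was higher and 4 were lower at an unadjusted p below 0.05 (12.1% and 12.9% of all tested genes). *Pde5a*, which breaks down cyclic GMP, had 37.4, 30.9 and 46.0 in the controls and 15.4, 21.4 and 16.9 in *Gp130* ecKO (−1.09, SE 0.23), and *Pde3a*, a phosphodiesterase that cyclic GMP inhibits, 17.4, 18.2 and 30.1 and then 9.49, 11.7 and 7.83 (−1.18, SE 0.30). Of 23 genes of calcium entry, pumps and exchange, 2 were higher and 3 lower at an unadjusted p below 0.05, where 25.0% of all tested genes were in either direction, and the median was 0.07. *Itpr3* had 55.6, 40.7 and 32.3 and then 84.1, 79.9 and 52.6 (0.75, SE 0.27), and *Cacna2d1*, a calcium channel subunit, 12.7, 18.2 and 47.0 and then 7.87, 13.9 and 8.37 (−1.36, SE 0.51), and the groups overlapped for both.

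Of 12 tested receptors of contracting and relaxing agents, 1 was below an unadjusted p of 0.05, as were 25.0% of all tested genes. It was *Ptger3*, a prostaglandin E2 receptor, with 30.4, 28.6 and 21.9 in the controls and 12.0, 8.46 and 12.8 in *Gp130* ecKO (−1.28, SE 0.25, adjusted p = 0.0677 in the edgeR quasi-likelihood test). *Ednra*, an endothelin receptor, had 15.3, 18.2 and 15.9 and then 7.73, 9.73 and 14.2 (−0.64, SE 0.28), with no overlap. Of 12 tested potassium channel genes besides the 2 members, 6 were lower at an unadjusted p below 0.05 and none higher (12.9% and 12.1% of all tested genes), and the median was −0.81. *Kcnj8*, a subunit of ATP-sensitive channels of vascular muscle, had 11.0, 13.3 and 11.0 and then 6.74, 5.73 and 8.25 (−0.77, SE 0.26), and *Kcnj2* 6.76, 5.40 and 6.00 and then 3.48, 3.77 and 2.90 (−0.84, SE 0.29). Of 6 other gap junction genes, 3 were lower and 1 higher at that threshold, with the same shares of all tested genes, the lowest p-values being those of *Gjc1* (15.1, 18.2 and 31.9, then 5.88, 13.0 and 6.18) and *Gja4* (32.3, 33.0 and 14.8, then 10.9, 15.5 and 14.5). *Gjc1*, connexin 45, was highest in control 3, as *Gja1* was.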

How the data were processed

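Poly(A) RNA of 6 uteri was sequenced with a strand-specific kit. The authors trimmed reads with fastp 0.23.2, removed ribosomal RNA, mapped to GRCm39 with STAR 2.7.10a and estimated counts with RSEM 1.3.3. The deposited tables list, for 56748 genes, an expected count and the TPM and FPKM values, and the deposited FPKM values were not used. The annotation and strand setting are not given in the sources used here. Symbols and positions came from GENCODE M39 (56017 identifiers matched), where *Mrvi1* is *Irag1*.

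Expected counts were rounded, filtered with filterByExpr and scaled by TMM in edgeR 4.0.16 (R 4.3.3). The quasi-likelihood test compared 3 uteri with 3, with Benjamini-Hochberg adjustment over 16605 genes. SE is the log2 fold change over the square root of F. Exact two-sided permutation tests used log2(CPM + 0.5). The deposited TPM served for levels between genes. Alternatives were other tests (DESeq2 1.42.0 among them), normalizations, no filter, unrounded counts, a block for the replicate number, scaling to 8 smooth muscle markers, and each uterus left out. The fit was tested on simulated data. Members and lists were chosen with earlier results of these data known. All members are named, and of each other list the 2 genes with the lowest p. Genes named outside this rule were chosen after their values were seen.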

Additional observations from a re-analysis of the deposited data

How the results depend on the processing

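The count of called members was 0 in the quasi-likelihood test, its legacy form, the other normalizations, the fit without a filter, unrounded counts, the block, marker scaling and each leave-out, and 1 with the exact test, 1 with the likelihood ratio test and 1 with DESeq2. With 1 uterus left out, the members below an unadjusted p of 0.05 numbered 2 to 10, those without overlap 3 to 11, and the median log2 fold change was −1.11 to −0.0174. With the smooth muscle marker scaling these numbers were 0, 5 and −0.11. The SE of the tested members was 0.95 to 1.17 in that fit, so its 0 does not decide on single members. The replicate numbers did not pair the uteri (correlation of deviations 0.10, 0.07 and −0.20), and the replicate block gave 0 called members, 4 below an unadjusted p of 0.05 and a median of −0.49. Directions that turned all belonged to values past no threshold. In the fit with the replicate block *Actg2* was −0.48, *Mrvi1* −0.0863 and *Oxtr* −0.0541. With marker scaling *Myh11* was 0.0911, *Flna* 0.0662, *Ldb3* 0.00887, *Srf* 0.57 and *Kcnmb1* 0.0511, and with upper quartile normalization *Mrvi1* was −0.00534. With 1 uterus left out the ranges that crossed 0 were −1.44 to 0.38 for *Acta2*, −1.42 to 0.75 for *Actg2*, −0.13 to 0.62 for *Tpm1*, −1.08 to 0.24 for *Myh11*, −1.15 to 0.19 for *Mylk*, −1.44 to 0.35 for *Cnn1*, −1.14 to 0.0680 for *Lmod1*, −0.60 to 0.0916 for *Ldb3*, −0.0944 to 1.07 for *Myocd*, −0.26 to 0.0736 for *Srf*, −0.53 to 0.35 for *Mrvi1*, −0.25 to 1.44 for *Ryr2*, −0.86 to 0.29 for *Casq2*, −1.11 to 0.28 for *Kcnmb1* and −1.02 to 1.00 for *Oxtr*. Depth limits *Actc1*, which was not tested, and *Myocd*, *Ryr2*, *Ldb3* and *Pln*, each with under 20 counts in at least 1 uterus, and control 3 had the fewest counts.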
